A study of Mus musculus with 6 samples.

Results

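The transcripts described here are 10 negative feedback genes of MAP kinase signaling in the mouse intervertebral disc (IVD). They are the dual-specificity phosphatase genes Dusp1, Dusp4, Dusp5, Dusp6 and Dusp10, the Sprouty genes Spry1, Spry2 and Spry4, and the Spred genes Spred1 and Spred2. They were taken by symbol from the 43472 gene symbols of the deposited count files, and all 10 were found. The 6 libraries hold poly(A) RNA from IVDs of the thoracic and lumbar spine at postnatal day 20. In 3 libraries the genotype is Col2Cre; Adgrg6f/f. There, a Cre driven by type II collagen regulatory sequence deletes a floxed part of the adhesion G protein-coupled receptor gene Adgrg6. In 3 it is wild type, named as Col2Cre control in the titles and as Cre (-) littermates in the results of the paper. The strain label of all samples is C57B6/J, each library is a pool of 2 to 3 mice, and whole discs were ground, so that fewer cells of a type and less RNA per cell cannot be told apart.

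MAP kinases are switched on by phosphorylation of a threonine and a tyrosine, and dual-specificity MAP kinase phosphatases remove both phosphates. Sprouty proteins dampen receptor tyrosine kinase signaling upstream of the kinase Raf, and Spred proteins bring neurofibromin to Ras. Many of these genes are themselves induced by the pathway they restrain, and in growth cartilage ERK signaling downstream of FGF receptors limits chondrocyte proliferation and maturation. ADGRG6 can signal through cyclic AMP, and Dusp1 is known as a gene induced by cyclic AMP, glucocorticoid, growth factors and stress.

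Gene counts were 9061491 to 12017008 per library. Expression is given as CPM, the share of a gene in the gene counts of its library, after TMM scaling, which evens out composition, with mean ± SD of 3 libraries. Genotypes were tested by edgeR (quasi-likelihood) over 16152 genes that passed the filter on low counts. The markers of chondrocytes (7 of 7), nucleus pulposus (6 of 6) and annulus fibrosus and tendon (5 of 5) were all detected in every library. The targeted gene, listed as Gpr126, averaged 109 ± 14.7 CPM in controls and 122 ± 16.1 CPM in mutants (difference 0.17 in log2, edgeR, unadjusted p = 0.367), in counts that cover the whole gene and so do not check the deletion. Libraries differed in other tissues. The 7 skeletal muscle markers summed to 3924 CPM in control replicate 1 and to 68.2 to 150 CPM in the others. The neuron and glia list, led by the myelin gene Mbp and with Tubb3 at 0 counts in all 6 libraries, summed to 216 to 1644 CPM in control and 901 to 3570 CPM in mutant IVDs.

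Among the 10 feedback genes, Dusp1 was higher in mutant IVDs at an unadjusted p under 0.05 with edgeR, and none was lower. At that threshold 7.21% of all tested genes were called, 2.89% as higher and 4.32% as lower, so 1 of 10 is near the background. After Benjamini-Hochberg adjustment over all tested genes, 0 of the 10 passed with edgeR, DESeq2 or limma-voom, where 0.00619% of all tested genes passed with edgeR. The median log2 fold change of the 10 genes was 0.29, beside -0.01 over all tested genes, and 6 of the 10 had a positive estimate, as did 48.4% of all tested genes. All 3 mutant libraries lay above all 3 control libraries for 2 of the 10, Dusp1 and Spred1, and below them for 0, compared with 5.45% and 5.96% of all tested genes.

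**Figure D1:**
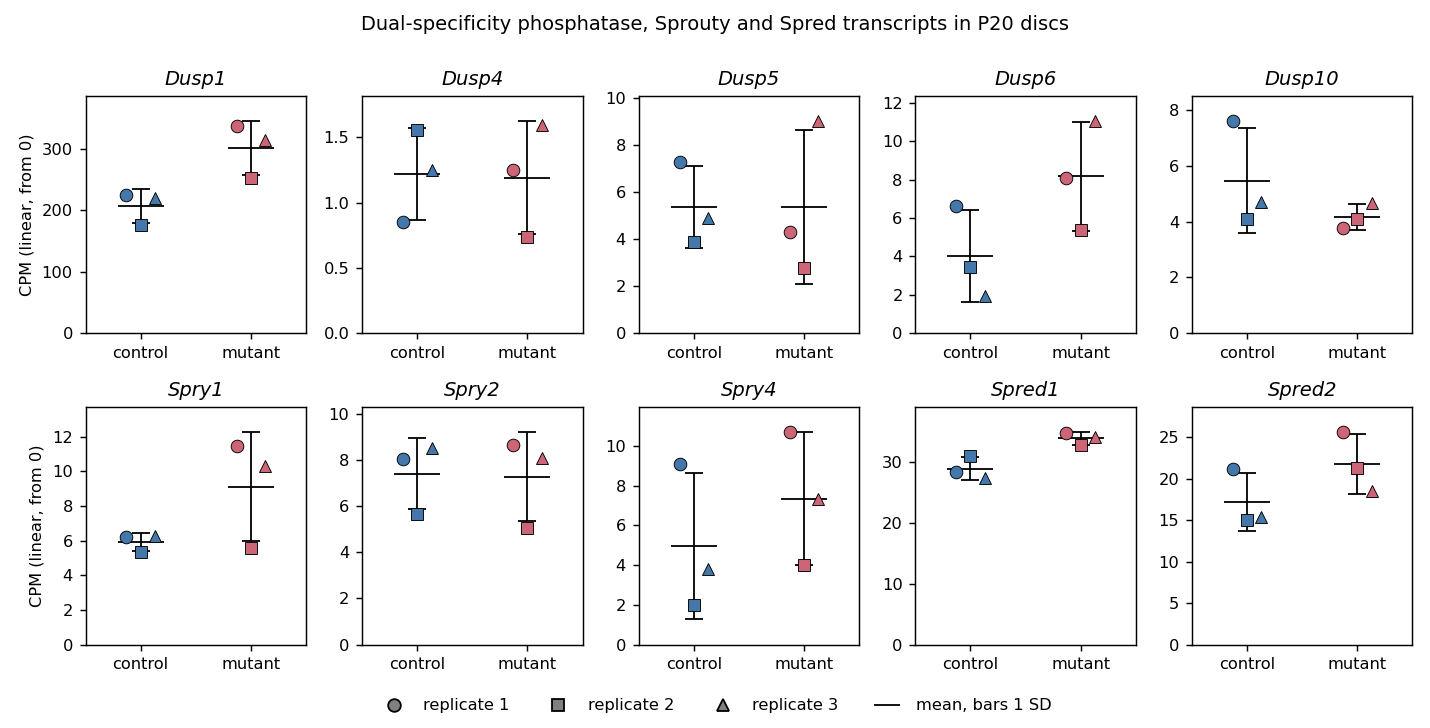
CPM of each of the 10 feedback genes (linear axes from 0, 1 panel a gene) in the 3 control and 3 mutant libraries, with horizontal lines at the mean and bars of 1 SD. The groups are separate for Dusp1, with mutant libraries between 253 and 337 CPM above controls at 175 to 225 CPM, and for Spred1, and they overlap for the other 8 genes.

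Dusp1, also called MKP-1, encodes a nuclear phosphatase of p38, JNK and ERK. It lies on chromosome 17 from 26505590 to 26562128 on the minus strand (GENCODE M21, GRCm38). This span reaches past the RefSeq start used for the promoter search below, whose window is at 26508473 to 26508722. Dusp1 was at 225, 175 and 219 CPM in control replicates 1, 2 and 3 and at 337, 253 and 314 CPM in mutant replicates 1, 2 and 3. The lowest mutant library was thus above the highest control library. The mean was 207 ± 27.3 CPM in control IVDs and 301 ± 43.4 CPM in mutant IVDs (n = 3 each), from 1578 to 3100 counts per library. The log2 fold change was 0.54 (standard error 0.20, 95% interval 0.11 to 0.98, unadjusted p = 0.0194, adjusted p = 0.676 by edgeR). The unadjusted call was lost without control replicate 2 (0.43, edgeR, unadjusted p = 0.0850), mutant replicate 1 (0.49, edgeR, unadjusted p = 0.0576) or mutant replicate 3 (0.52, edgeR, unadjusted p = 0.0570). Part of the Dusp1 exons lies opposite exons of Ergic1 on the other strand, and the strand setting of the counting is not given in the sources used here. Ergic1 took 5185 counts in total and Dusp1 15505, and the Ergic1 estimate was 0.19 in log2 (edgeR, unadjusted p = 0.368).

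Dusp1 was also the most abundant of the 10 transcripts by far. It made up 70.3% to 74.7% of their summed CPM in control libraries and 75.0% to 75.6% in mutant libraries. The summed CPM was 247 to 321 in control and 335 to 446 in mutant IVDs. Without Dusp1 the sums overlapped, at 72.1 to 95.4 CPM in control and 81.7 to 109 CPM in mutant IVDs.

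Dusp6 encodes a cytoplasmic phosphatase that is specific for ERK and is a common readout of ERK activity. It lies on chromosome 10 from 99263231 to 99267489. It was at 6.64, 3.44 and 1.95 CPM in control replicates 1, 2 and 3 and at 8.08, 5.39 and 11 CPM in mutant replicates 1, 2 and 3. The groups overlapped, since control replicate 1 exceeded mutant replicate 2. Its log2 fold change was the largest of the 10 in this fit at 1.03 (standard error 0.48, 95% interval -0.02 to 2.09, edgeR, unadjusted p = 0.0547). The interval thus reaches from no change to more than 4-fold. The unadjusted p was 0.0345 with DESeq2, 0.0111 with limma-voom and 0.0166 with edgeR when low counts were kept. Without control replicate 1, the library with the muscle signal, the log2 fold change was 1.63 (edgeR, unadjusted p = 0.00515), and without control replicate 3 it was 0.70 (edgeR, unadjusted p = 0.144). The part of the muscle signal in this value was not tested. Dusp6 had 25 to 104 counts per library, and the spread among controls, a coefficient of variation of 59.6%, was larger than the 15.9% that counting alone gives.

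Dusp5 encodes a nuclear phosphatase of ERK and lies on chromosome 19 from 53529109 to 53542431, with an antisense gene over its exons. It was at 7.28, 3.89 and 4.92 CPM in control and at 4.32, 2.77 and 9.03 CPM in mutant replicates 1, 2 and 3, and both the highest and the lowest library were mutant. The log2 fold change was -0.0013 (95% interval -1.05 to 1.05, edgeR, unadjusted p = 0.998). Dusp4, another nuclear phosphatase of ERK, p38 and JNK, lies on chromosome 8 from 34807297 to 34819894. It had 8 to 16 counts per library, 0.856, 1.55 and 1.25 CPM in control and 1.25, 0.734 and 1.59 CPM in mutant replicates 1, 2 and 3. Its log2 fold change was -0.04 (95% interval -1.42 to 1.34, edgeR, unadjusted p = 0.947), an interval that holds a change of 2-fold either way. Dusp10, a phosphatase of p38 and JNK on chromosome 1 from 184013302 to 184075636, had the lowest estimate of the 10. It was at 7.60, 4.11 and 4.69 CPM in control and 3.76, 4.08 and 4.67 CPM in mutant replicates 1, 2 and 3. Only control replicate 1 stood apart, and the log2 fold change of -0.39 (95% interval -1.24 to 0.46, edgeR, unadjusted p = 0.335) became -0.06 without it.

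To show which promoters hold the letters bound by factors that act on early-response genes, the 250 bases before the RefSeq start (GRCm38.p6) were searched on both strands. Windows were found for 8 of the 10 genes, all but Dusp4 and Spry4. The full cyclic AMP response element (CRE) was searched as TGACGTCA and its core as TGACG. The site of AP-1 was searched as TGANTCA and the core site of ETS factors as CCGGAA. The search also took in TATAAA and, by its usual consensus, the CArG box of serum response factor. The full CRE was in 1 of 8 windows and in 1.55% of all 32851 windows of this length, the core in 3 of 8 and in 17.8% of all, and the CArG box in 1 of 8 and in 1.47% of all. AP-1, ETS and TATAAA letters were in 0 of 8, beside 6.75%, 12.0% and 12.4% of all windows. The Dusp1 window holds the full CRE at 143 to 136 bases before the start, where 2 cores overlap within it, and a further core from -191 to -187. The Dusp5 window holds a pair of adjoining CArG boxes from -82 to -63 and a core from -55 to -51, and the Spred2 window a core from -51 to -47. These 3 windows are shown with the Dusp6 window, which had none of the letters. Capitals mark the CRE core, full CRE and CArG box on either strand, and the sequences are on the strand of the gene from RefSeq, at chr17:26508473-26508722 (minus), chr19:53528895-53529144 (plus), chr11:19924192-19924441 (plus) and chr10:99262981-99263230 (plus). A match in letters is a description and no measure of binding.
Dusp1: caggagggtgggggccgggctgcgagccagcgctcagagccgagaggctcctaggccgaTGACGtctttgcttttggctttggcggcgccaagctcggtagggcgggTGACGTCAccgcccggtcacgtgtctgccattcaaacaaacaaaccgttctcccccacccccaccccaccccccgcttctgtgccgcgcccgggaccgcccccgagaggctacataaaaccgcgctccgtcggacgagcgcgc
Dusp5: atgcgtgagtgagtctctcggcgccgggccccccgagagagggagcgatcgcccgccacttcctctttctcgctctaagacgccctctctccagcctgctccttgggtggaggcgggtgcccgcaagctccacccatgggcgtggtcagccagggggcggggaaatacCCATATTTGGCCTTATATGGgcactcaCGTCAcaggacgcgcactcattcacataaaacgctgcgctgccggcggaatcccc
Spred2: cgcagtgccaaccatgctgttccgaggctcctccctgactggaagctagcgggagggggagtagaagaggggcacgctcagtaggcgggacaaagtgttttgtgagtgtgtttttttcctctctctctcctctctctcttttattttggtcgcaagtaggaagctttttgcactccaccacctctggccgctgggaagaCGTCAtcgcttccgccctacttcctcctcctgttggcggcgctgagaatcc
Dusp6: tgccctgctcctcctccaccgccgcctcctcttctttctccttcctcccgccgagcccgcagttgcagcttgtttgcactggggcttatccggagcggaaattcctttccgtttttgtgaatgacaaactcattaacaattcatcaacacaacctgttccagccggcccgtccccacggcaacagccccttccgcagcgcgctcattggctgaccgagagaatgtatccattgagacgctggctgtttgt

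Spry1, Spry2 and Spry4 encode membrane-associated inhibitors of receptor tyrosine kinase signaling, and none of them passed the test. Spry1, on chromosome 3 from 37639947 to 37644598 and overlapped by the antisense model Gm42922, was at 6.21, 5.33 and 6.25 CPM in control and at 11.5, 5.55 and 10.3 CPM in mutant replicates 1, 2 and 3. Mutant replicates 1 and 3 were above all controls and mutant replicate 2 was among them. The log2 fold change was 0.61 (standard error 0.34, 95% interval -0.14 to 1.36, edgeR, unadjusted p = 0.0981), and 0.89 (edgeR, unadjusted p = 0.0170) without mutant replicate 2. Spry4, on chromosome 18 from 38586247 to 38601415, was at 9.10, 2.00 and 3.83 CPM in control and 10.7, 4.0 and 7.33 CPM in mutant replicates 1, 2 and 3. Controls spread so widely (coefficient of variation 74.1%, beside 14% from counting) that control replicate 1 exceeded mutant replicates 2 and 3. The log2 fold change of Spry4 was 0.56 (95% interval -0.66 to 1.78, edgeR, unadjusted p = 0.335), and 1.33 without control replicate 1 (edgeR, unadjusted p = 0.0256). Spry2, on chromosome 14 from 105891947 to 105896819, was at 8.03, 5.66 and 8.52 CPM in control and 8.65, 5.06 and 8.07 CPM in mutant replicates 1, 2 and 3. Ranges of the genotypes nearly coincided, with a log2 fold change of -0.04 (95% interval -0.76 to 0.69, edgeR, unadjusted p = 0.916).

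Spred1 and Spred2 were the most abundant of the feedback genes after Dusp1, and neither passed the test. Spred1, on chromosome 2 from 117121374 to 117182279, was at 28.5, 31.1 and 27.4 CPM in control and 34.8, 32.8 and 34.1 CPM in mutant replicates 1, 2 and 3. The groups did not overlap on the TMM scale. On unscaled library sizes mutant replicate 1 lay just below control replicate 3, so that only Dusp1 of the 10 was then separate. Means were 29.0 ± 1.91 CPM in control and 33.9 ± 1.02 CPM in mutant IVDs. The log2 fold change was 0.23 (standard error 0.15, 95% interval -0.12 to 0.57, edgeR, unadjusted p = 0.170), which stayed between 0.20 and 0.27 with any 1 library left out and did not pass in any of the 11 alternatives. Spred2, on chromosome 11 from 19924375 to 20024026, was at 21.2, 15.0 and 15.4 CPM in control and 25.6, 21.3 and 18.5 CPM in mutant replicates 1, 2 and 3. Control replicate 1 exceeded mutant replicate 3, and the log2 fold change was 0.34 (95% interval -0.14 to 0.82, edgeR, unadjusted p = 0.144), or 0.54 without control replicate 1 (edgeR, unadjusted p = 0.0402).

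**Figure D2:**
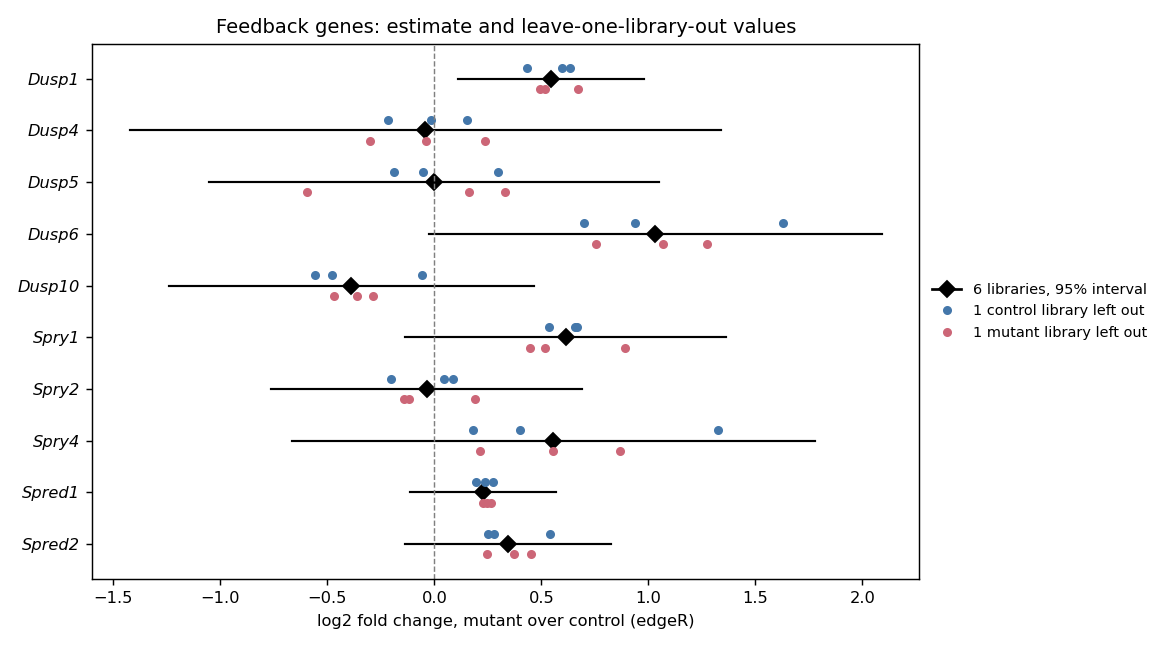
Log2 fold change of mutant over control for the 10 feedback genes from edgeR (diamonds, with 95% intervals as lines) and with 1 control library (blue) or 1 mutant library (red) left out. The interval of Dusp1, 0.11 to 0.98, is the only one of the 10 that leaves out 0, and the point farthest to the right is Dusp6 without control replicate 1, at 1.63.

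Levels between genes were compared per length, as CPM per kilobase of annotated exon. In control IVDs Dusp1 was at 62.4 ± 8.25 and was followed by Spred1 at 4.27 ± 0.282, Spred2 at 3.72 ± 0.751, Spry2 at 3.55 ± 0.732, Dusp5 at 2.17 ± 0.703 and Spry1 at 2.04 ± 0.179. At the low end were Dusp10 at 1.80 ± 0.615, Dusp6 at 1.28 ± 0.764, Spry4 at 1.05 ± 0.775 and Dusp4 at 0.445 ± 0.128 CPM per kilobase. Of the steps between neighbours in this order, only that from Dusp1 to Spred1 was larger than the SDs of both added together. In mutant IVDs Dusp1, at 91.0 ± 13.1, Spred1, at 5.0 ± 0.151, and Spred2, at 4.72 ± 0.776 CPM per kilobase, kept the first places, and Dusp6 stood at 2.61 ± 0.904.

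The libraries of a genotype also differed in these genes. On the TMM scale, mutant replicate 1 held the highest CPM of 6 of the 10 genes and mutant replicate 3 that of 3. Control replicate 2 held the lowest of 4 and mutant replicate 2 the lowest of 3. On unscaled library sizes the highest library was mutant replicate 3 for Dusp1, control replicate 3 for Spry2 and mutant replicate 2 for Spred1. How often each library was highest or lowest over all tested genes was not computed. In control replicate 2, 8 of the 10 were below the control mean, and in mutant replicate 2, 6 of 10 were. By root mean square difference of centred log2 CPM over the 6 libraries, the tested genes most like Dusp1 were Glp2r, which encodes the receptor of glucagon-like peptide 2, at 0.05, and Sgk1, at 0.07, where the spread of Dusp1 itself was 0.32. Glp2r was at 25.7, 20.9 and 26.9 CPM in control and 41.2, 32.8 and 37.9 CPM in mutant replicates 1, 2 and 3. The feedback gene nearest to Dusp1 was Spry1, at 0.20.

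Of the other MAP kinase phosphatases (Dusp2, Dusp7, Dusp8, Dusp9 and Dusp16), 3 of 5 had enough counts to be tested and 0 of these were called with edgeR. Dusp7, which acts on ERK, was at 37.4, 75.9 and 39.5 CPM in control and 93.2, 33.1 and 76.0 CPM in mutant replicates 1, 2 and 3, and Dusp8, which acts on JNK and p38, was at 36 ± 8.12 CPM in control and 46.6 ± 18.4 CPM in mutant IVDs. Their log2 fold changes were 0.40 (edgeR, unadjusted p = 0.306) and 0.38 (edgeR, unadjusted p = 0.235). Single libraries moved both. With 1 library left out Dusp7 ranged from 0.14 without mutant replicate 1 to 0.80 without control replicate 2, and was called at 0.75 without mutant replicate 2 (edgeR, unadjusted p = 0.0324). Dusp8 ranged from 0.15 without mutant replicate 3 to 0.70 without mutant replicate 1, where it was called (edgeR, unadjusted p = 0.0128). Spred3, the only other Sprouty or Spred gene tested, had a log2 fold change of 0.39 (edgeR, unadjusted p = 0.231). Among 12 tested atypical dual-specificity phosphatases, which lack the MAP kinase binding domain, 2 were higher in mutant IVDs and 0 lower, beside 2.89% and 4.32% of all tested genes. They were Dusp3, which rose from 27.7 ± 7.47 to 41.4 ± 3.04 CPM (log2 fold change 0.58, edgeR, unadjusted p = 0.0173), and Dusp14, which rose from 9.94 ± 2.55 to 16.0 ± 1.23 CPM (log2 fold change 0.69, edgeR, unadjusted p = 0.0171). Neither was called without control replicate 3 (edgeR, unadjusted p = 0.0685 for Dusp3 and unadjusted p = 0.0524 for Dusp14), nor was Dusp3 without control replicate 2 (edgeR, unadjusted p = 0.0605).

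Of 11 tested transcripts that follow ERK activity in other cells, 1 was higher and 1 lower in mutants, where 2.89% and 4.32% of all tested genes were, and the median was 0.12 in log2. Errfi1, a feedback inhibitor of the EGF receptor, rose from 15.9 ± 0.356 to 25.9 ± 5.32 CPM, with 3 of 3 mutant libraries above every control (log2 fold change 0.71, edgeR, unadjusted p = 0.00500). Epha4, an ephrin receptor, fell from 22.0 ± 4.34 to 13.4 ± 5.58 CPM (log2 fold change -0.71, edgeR, unadjusted p = 0.0433), and mutant replicate 2 lay within the controls. Errfi1 passed in all 11 alternatives, and Epha4 was lost without control replicate 1 or 3 or mutant replicate 1 or 3 (edgeR, largest unadjusted p = 0.152).

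In the ERK cascade itself, 1 of 26 genes was higher and 1 lower, a share near the 7.21% of all tested genes called in either direction, with a median log2 fold change of 0.02. Shc1, an adaptor between receptors and Ras, rose from 77.7 ± 6.65 to 117 ± 21.2 CPM (log2 fold change 0.59, edgeR, unadjusted p = 0.00962). Rps6ka3, the ERK-activated kinase RSK2, fell from 32.9 ± 4.91 to 23.8 ± 3.06 CPM (log2 fold change -0.47, edgeR, unadjusted p = 0.0297), and the groups of each of these genes did not overlap. Shc1 passed in all 11 alternatives, and Rps6ka3 was lost with the replicate block (edgeR, unadjusted p = 0.0546) and without control replicate 1 or 3 or mutant replicate 1 or 3 (edgeR, largest unadjusted p = 0.136). Of 15 genes of the p38 and JNK cascade 0 were called with edgeR and 2 with limma-voom. With edgeR, 4 were called without control replicate 1 and 1 (Map3k5, -0.58) without mutant replicate 2. Those fits called 2427 of 17164 and 1669 of 17095 tested genes, beside 1164 of 16152 with all libraries. The smallest p were those of Map3k5 (log2 fold change -0.43, edgeR, unadjusted p = 0.0724) and Mapkapk3 (0.52, edgeR, unadjusted p = 0.0762). Among 10 FGF receptors and ligands 0 were called with edgeR, 1 with limma-voom, and 1 each with edgeR without control replicate 1 (Fgf18, 0.94) or without mutant replicate 1 (Fgfr3), with Fgf2 at -0.59 (edgeR, unadjusted p = 0.0728) and Fgf18 at 0.58 (edgeR, unadjusted p = 0.163). Of 6 tested genes induced by cyclic AMP, 0 were called with edgeR, DESeq2 or limma-voom, and 2 with edgeR without mutant replicate 2, and Sik1 and Pde4b had log2 fold changes of 0.31 (edgeR, unadjusted p = 0.118) and 0.23 (edgeR, unadjusted p = 0.283).

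**Figure D3:**
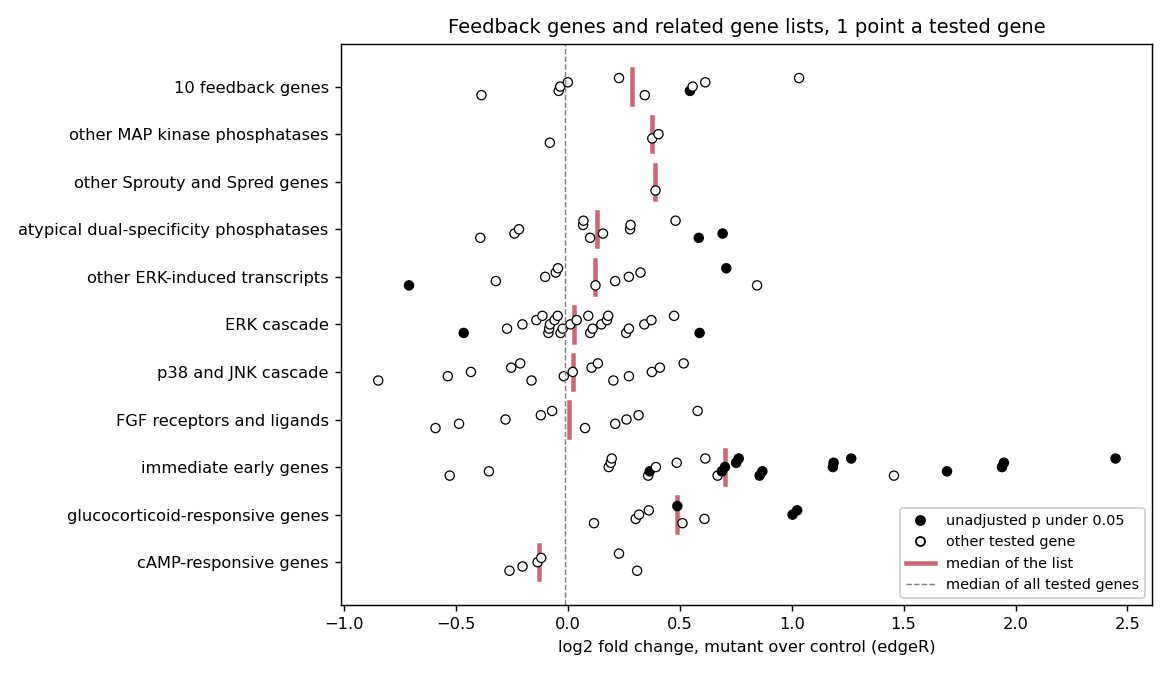
Log2 fold change of mutant over control from edgeR for each tested gene of the 10 feedback genes and of 10 related lists, filled where the unadjusted p was under 0.05, with red bars at list medians and a dashed line at the median of all tested genes. The immediate early genes, with a median of 0.70 and 14 filled points, and the glucocorticoid-responsive genes, with a median of 0.49, lie farther to the right than the ERK cascade at 0.02. All lists were chosen with earlier results of these data known.

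Dusp1 is itself an immediate early gene, a class that is transcribed within minutes of a stimulus, and 14 of 25 other immediate early genes were higher in mutant IVDs and 0 lower, beside 2.89% and 4.32% of all tested genes. With the replicate block 10 were called. All lists here were chosen with earlier results of these data known, so these counts are a description and no separate support. None of the 25 passed after adjustment over all genes in this edgeR fit or with limma-voom, 1 did with DESeq2 (Jun, adjusted p = 0.0200) and 8 did with edgeR when low counts were kept, a setting that passed 245 of all genes. The AP-1 subunit gene Fos was at 48.1, 14.8 and 28.5 CPM in control and 236, 69.0 and 47.8 CPM in mutant replicates 1, 2 and 3, a log2 fold change of 1.95 (edgeR, unadjusted p = 0.00710). Egr1, a zinc finger factor gene, was at 45.1, 13.1 and 18.8 CPM in control and 201, 43.8 and 51.1 CPM in mutant replicates 1, 2 and 3, a log2 fold change of 1.94 (edgeR, unadjusted p = 0.00923). In both, mutant replicate 1 stood far above the other libraries, and 1 mutant library lay just below control replicate 1. Jun rose from 90.4 ± 26.2 to 206 ± 79.7 CPM (log2 fold change 1.19, edgeR, unadjusted p = 0.00334) and Fosb from 11.8 ± 2.42 to 64.4 ± 68.7 CPM (log2 fold change 2.45, edgeR, unadjusted p = 0.00410). Fosb was at 143, 36.3 and 14.1 CPM in mutant replicates 1, 2 and 3, the last of them below control replicate 1 at 14.3 CPM. Without mutant replicate 1 the log2 fold changes fell to 0.97 for Fos, 0.92 for Egr1 and 1.14 for Fosb.

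The other genes called were the AP-1 genes Junb (log2 fold change 1.27) and Fosl2 (0.75), the mRNA decay factor gene Zfp36 (1.69), the Kruppel-like factor genes Klf2 (1.18) and Klf6 (0.69), the antiproliferative gene Btg2 (0.87), and Ier2 (0.86), Atf3 (0.76), Ier3 (0.70) and Nr4a1 (0.36). Without mutant replicate 1, 8 immediate early genes were called, and without control replicate 3 also 8. Fos, Fosl2, Jun, Atf3, Zfp36 and Btg2 passed in all 11 alternatives, Fosb missed with limma-voom, Egr1 without mutant replicate 1 (edgeR, unadjusted p = 0.0607), and Nr4a1 passed in 3. Junb and Ier2 passed in 5, and without mutant replicate 1 they fell to 0.21 and 0.27 in log2 (edgeR, unadjusted p = 0.268 and unadjusted p = 0.190). Klf2 and Klf6 passed in 6 and Ier3 in 7. Mutant libraries did not overlap controls for 6 of the 25 in the higher direction, among them Jun, Atf3, Btg2 and Nr4a1, and for 1 in the lower direction, Nr4a2, beside 5.45% and 5.96% of all tested genes.

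Of 9 genes that respond to glucocorticoid, 3 were higher in mutant IVDs and 0 lower, and all 9 had a positive estimate, beside 2.89%, 4.32% and 48.4% of all tested genes. Their summed CPM was 341 to 491 in control and 571 to 733 in mutant IVDs, without overlap. Taken gene by gene, all mutant libraries lay above all controls for 2 of the 9, Cdkn1a and Sgk1, and below them for 0. Among all tested genes these shares were 5.45% and 5.96%. Cdkn1a, the cell cycle inhibitor p21, rose from 81.0 ± 14.9 to 165 ± 5.39 CPM (log2 fold change 1.02, unadjusted p = 0.000268, adjusted p = 0.411 by edgeR). Its adjusted p was 0.000237 with DESeq2, 0.141 with limma-voom and 0.00276 with edgeR when low counts were kept, and over all 11 alternatives it lay between 0.000237 and 0.999. The clock gene Per1 rose from 60.8 ± 25.0 to 122 ± 54.3 CPM (log2 fold change 1.0, edgeR, unadjusted p = 0.0187). Sgk1, a kinase of ion transport, rose from 41.1 ± 5.40 to 57.7 ± 8.58 CPM (log2 fold change 0.49, edgeR, unadjusted p = 0.0211). Cdkn1a passed in all 11 alternatives, Per1 was lost without control replicate 2 or 3 or mutant replicate 1 (edgeR, largest unadjusted p = 0.0896), and Sgk1 without control replicate 2 or mutant replicate 3 (edgeR, largest unadjusted p = 0.0870).

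**Figure D4:**
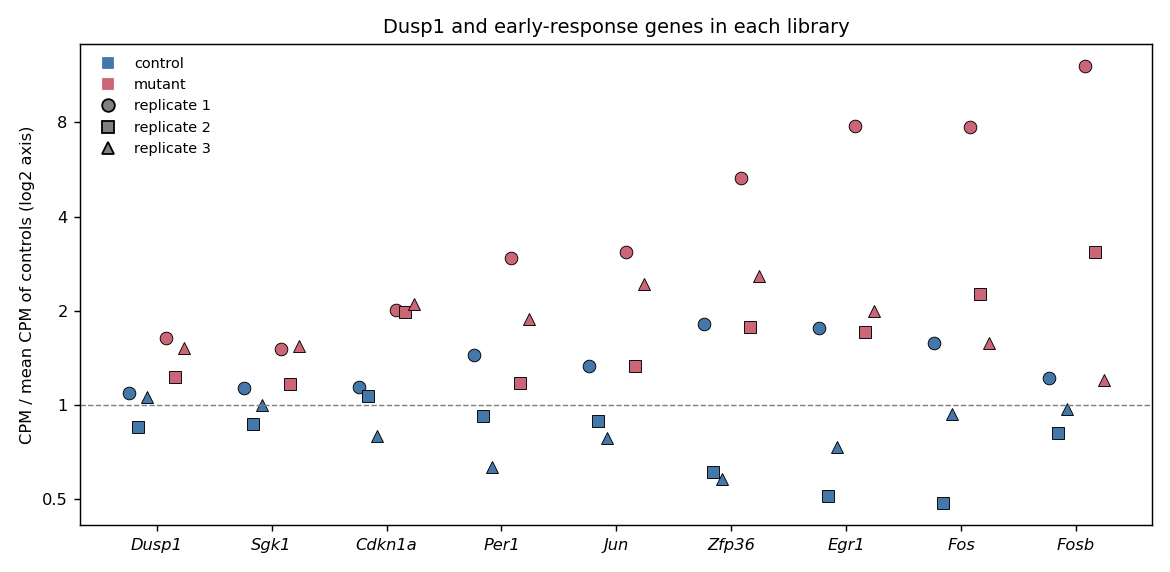
CPM of Dusp1 and of 8 early-response genes in each library divided by the mean of the controls (log2 axis), with control libraries in blue and mutant libraries in red. The genes shown beside Dusp1 were picked after their values were seen, from those called. Mutant replicate 1 (red circles) is set off from the other mutant libraries for Fos, Egr1 and Zfp36 and not for Dusp1, Sgk1 and Cdkn1a.

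In the annulus fibrosus and tendon list 2 of 5 were higher, and at least 2 in every alternative, with sums of 2884 to 4216 CPM in control and 3768 to 5324 CPM in mutant IVDs. Tnmd, the tendon gene tenomodulin, rose from 30.5 ± 3.02 to 59.4 ± 23.5 CPM (log2 fold change 0.96, edgeR, unadjusted p = 0.00376). Thbs4, a thrombospondin of tendon matrix, rose from 83.0 ± 26.8 to 176 ± 26.2 CPM (1.09, edgeR, unadjusted p = 0.00114), and mutant libraries were above all controls for both. In the chondrocyte list 1 of 7 was lower, the matrilin gene Matn3 (-0.78, edgeR, unadjusted p = 0.0178), which was not called when control replicate 1 or mutant replicate 2 or 3 was left out, and 2 of 7 estimates were positive. In the nucleus pulposus list 0 of 6 were called, and 1 was called with limma-voom and in 4 of the other edgeR fits. Among all tested genes 2.89% were higher and 4.32% lower.

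Counts of called markers of other cells changed with the fit and when single libraries were left out. In edgeR with all libraries, 2.89% of all tested genes were higher and 4.32% lower, 1164 genes in all. Calls over all genes were 2427 without control replicate 1, 618 without control replicate 3, 2276 with low counts kept and 1476 with limma-voom. The neutrophil list had 1 of 7 genes higher, the myeloperoxidase gene Mpo. It had 4 when low counts were kept and 4 without control replicate 3 or without mutant replicate 3. Its sum was 16.2 to 57.1 CPM in control and 29.2 to 138 CPM in mutant IVDs, highest in mutant replicate 1. The macrophage list had 1 of 7 higher, Cd68, and 0 with the replicate block or without control replicate 2 or 3 or mutant replicate 1, and 2 without mutant replicate 2, with sums of 65.0 to 91.1 CPM in control and 76.6 to 154 CPM in mutant IVDs. The red blood cell precursor list had 1 of 7 higher, the anion exchanger gene Slc4a1. The list had 6 higher without control replicate 1 or with limma-voom, and 7 when low counts were kept. Its sums were 39.6 to 342 CPM in control and 213 to 449 CPM in mutant IVDs. The endothelial list had 0 of 7 called, and 4 higher without control replicate 1 and 3 with limma-voom, with sums of 152 to 290 CPM in control and 237 to 264 CPM in mutant IVDs. All 7 muscle markers were called as lower, but 0 were with the replicate block or limma-voom and 1 was with DESeq2, and 2 to 3 were with a mutant library left out. Without control replicate 1, 0 were lower and 3 higher. In the neuron and glia list 2 of 6 tested were higher, Gfap and Nefl, and 1 with limma-voom or without mutant replicate 1. The count was 4 with the replicate block, with low counts kept, or without control replicate 2 or mutant replicate 3. Osteoblast markers, with 2 of 7 higher (Bglap and Col1a1) and 1 lower (Phex), and with 1 to 3 higher and 0 to 1 lower when 1 library was left out, summed to 4646 to 14078 CPM in control and 12670 to 21102 CPM in mutant IVDs. Col1a1, a fibrillar collagen gene that annulus fibrosus also expresses, made up 83.5% to 95.9% of these sums, and without it they were 767 to 1216 CPM in control and 870 to 1133 CPM in mutant IVDs. No marker of the neutrophil, macrophage, red blood cell, endothelial, muscle or osteoblast lists was at 0 in any library. The part of these cells in the values of Dusp1 and the other early-response genes was not tested.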

How the data were processed

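Poly(A) RNA of 3 control and 3 mutant pools was sequenced in paired ends. The authors deposited raw counts per gene symbol for each library, and those counts are the input here. The methods name Cutadapt, FastQC and HISAT2 with GRCm38.88, while the submitters' processing notes name STAR 2.5.3a, HTSeq and DESeq2, and the strand setting is not given in the sources used here. Lines that name no gene, with 55.8% to 59.6% of entries, were left out. Among them, entries not aligned were 18.9% in mutant replicate 1 and 12.0% to 15.2% in the other libraries. The part of this difference in the values of mutant replicate 1 was not tested. A deposited table of the authors' own comparison (fold changes, p-values and normalized values of selected genes) was not used.

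Counts were normalized by TMM, filtered with filterByExpr (minimum 10 counts) and tested with glmQLFTest of edgeR 4.0.16 in R 4.3.3, with Benjamini-Hochberg adjustment. The fold change standard error is its size over the square root of F. Alternatives were RLE size factors, no filter, a replicate block, DESeq2 1.42.0, limma-voom with quality weights (limma 3.58.1) and leaving out each library. Tested on simulated counts of 16152 genes for this comparison, the fit called 80.6% of 2-fold and 94.9% of 4-fold changes at an unadjusted p under 0.05. It also called 4.72% of unchanged genes. The changed genes were drawn at random from all tested genes, so these shares need not hold for the 10 genes, several of which had low counts. Coefficients of variation from counting cover counting error only. The pools are labelled as separate biological replicates. Named were the 10 genes, the genes of each pathway list at an unadjusted p under 0.05 or else the 2 with the smallest p, and the 2 genes most like Dusp1 in profile. Nr4a2, Fgfr3 and the named genes of the cell type marker lists were chosen outside this rule, after their values were seen. The 10 genes and all lists were chosen with earlier results of these data known. Gene positions are those of GENCODE M21.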

Additional observations from a re-analysis of the deposited data

How the results depend on the processing

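Of the 110 estimates of the 10 genes under 11 alternatives, 86 kept their direction and their side of the unadjusted threshold, 8 newly passed it, 3 no longer did (Dusp1) and 13 changed sign. When low counts were kept, edgeR called 2276 genes unadjusted, 245 adjusted, and 2 of the 10. DESeq2 called 58 genes adjusted and 2 of the 10 unadjusted, and limma-voom 0 adjusted and 2 of the 10 unadjusted. Leaving out 1 library moved the unadjusted count of all genes from 1164 to between 618 and 2427, the adjusted count from 1 to between 0 and 31, the count among the 10 from 1 to between 0 (control replicate 2, mutant replicate 1 or 3 left out) and 4 (control replicate 1 left out), and that among the related lists from 23 to between 12 and 30. The sign changes were in Dusp5 (0.0033 with RLE, 0.011 without the filter, 0.0037 with DESeq2, 0.22 with limma-voom, and -0.60 to 0.33 with 1 library left out), Spry2 (0.084 with limma-voom, -0.20 to 0.19 with 1 library left out) and Dusp4 (-0.30 to 0.24 with 1 library left out), and the cause was not tested. Of 24 genes named and called in the related lists or as nearest to Dusp1, 10 passed in all 11 alternatives, and 11 were lost without control replicate 3, more than without any other library. Glp2r, among those 10, was chosen for its likeness to Dusp1 in these libraries, so its call is no separate result. CPM on unscaled library sizes put 6 of the 10 means higher in mutant IVDs, and scaled CPM 7.

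The replicate numbers of the titles gave no sign of a pairing. Deviations of same-numbered libraries correlated at 0.16, -0.13 and 0.10 across genes, and those of differently numbered libraries at -0.26 to 0.18. With 3 libraries a group, these values cannot settle whether the libraries were paired. With the replicate number as a block in edgeR, 1002 genes were called unadjusted and 0 adjusted, 1 of the 10 feedback genes (Dusp1, 0.54, unadjusted p = 0.0218) and 19 genes of the related lists. Depth was lowest for Dusp4, at 73 counts over all libraries.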

Other observations

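Some relatives of the feedback genes fell below the filter on low counts. Dusp9, which encodes a cytoplasmic phosphatase of ERK, had 3, 17 and 8 counts in the control libraries, in order of replicate number, and 1, 0 and 1 in the mutant libraries, for sums of 28 and 2. In edgeR without the filter its unadjusted p was 0.0319 and its adjusted p 0.514, and 17 of the 28 control counts came from control replicate 2. Dusp2, a nuclear phosphatase induced in immune cells, had 10 counts in control and 15 in mutant libraries, 14 of them in mutant replicate 2, and Spry3 had 5 and 5. These genes were singled out after their values were seen.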
